A study of Mus musculus with 76 samples.

Results

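The AMPA receptor is the main fast glutamate receptor of the brain, and its RNA was examined here in single interneurons of the newborn mouse hippocampus. The genes are the pore-forming subunits Gria1 to Gria4 and the auxiliary subunits Cnih2, Cnih3, Cacng2 and Cacng8, chosen by name as 8 of the 35825 gene symbols in the deposited tables. Each library is the content of 1 neuron drawn into a patch pipette (Patch-seq) from the dorsal CA1 pyramidal layer at postnatal day 4. The cells were tdTomato-positive through Nkx2.1-Cre and the Ai14 reporter, which all mice compared here carried. This label follows descent from the medial ganglionic eminence (MGE), the embryonic source of parvalbumin and somatostatin interneurons, and does not report current gene expression.

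The groups were GPHNS268/270A (Mut) females (19 cells), Mut males (15 cells), GPHNWT (WT) females (9 cells) and WT males (19 cells), 62 cells in all that the authors kept and did not mark as contaminated. Gephyrin is the scaffold of inhibitory synapses, and the Mut allele replaces a pair of its serines with alanine. The labels list 76 cells, of which the authors kept 67, and 5 of those are marked as contaminated. The labels name no animal, litter or batch, so cells were not used as replicates and each group was 1 sum of cells. A cell held 2946456 to 12070780 counts (median 6353179). Intervals below are exact Poisson or binomial at 95% and cover counting error only, since amplified reads do not each stand for a separate molecule. The limit given beside a count of 0 is 3 counts of the total, not an exact interval. In material drawn by a pipette, less RNA collected from a cell and less RNA made by it cannot be told apart.

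AMPA receptors are assemblies of GluA1 to GluA4, the proteins of Gria1 to Gria4. Receptors that lack edited GluA2 pass calcium and are blocked from inside by polyamines, and such receptors are well known in parvalbumin interneurons. Cornichons (Cnih2, Cnih3) and the TARPs stargazin (Cacng2) and gamma-8 (Cacng8) bind the pore, help it reach the surface and slow its closing.

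The calcium control of GluA2 rests on 1 codon in the pore loop, a genomically encoded glutamine that the editing enzyme of Adarb1 changes to arginine in Gria2 RNA. The spliced coding stretch around this codon is printed for each pore subunit from the GENCODE M21 transcripts (GRCm38), 5′ to 3′, with the codon of the editing position in capitals, because it is the position at which Gria2 sets calcium entry and the 4 genes are much alike around it.
Gria1: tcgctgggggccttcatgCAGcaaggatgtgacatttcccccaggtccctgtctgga
Gria2: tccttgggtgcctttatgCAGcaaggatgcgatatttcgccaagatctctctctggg
Gria3: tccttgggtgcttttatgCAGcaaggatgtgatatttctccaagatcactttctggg
Gria4: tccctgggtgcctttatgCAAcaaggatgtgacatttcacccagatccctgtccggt

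The 4 stretches share 42 of 57 bases. Gria2 and Gria3 differ at 5 bases and Gria1 and Gria2 at 12. The codon is CAG in Gria1, Gria2 and Gria3 and CAA in Gria4, and it lies in exon 11 of the transcript used for each gene. In Gria2 it is at chr3:80706911-80706913 on the minus strand, in Gria1 at chr11:57243094-57243096 on the plus strand, in Gria3 at chrX:41610265-41610267 on the plus strand and in Gria4 at chr9:4464137-4464139 on the minus strand. The deposited values are given per gene, so they hold no reading of the edited base.

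The genes lie apart in the genome (GRCm38, GENCODE M21). Gria1 spans chr11:57011387-57330244, Gria2 chr3:80681450-80802835, Gria3 chrX:41400854-41678601 and Gria4 chr9:4417896-4796234. Cnih2 spans chr19:5092868-5098521, Cnih3 chr1:181352628-181460641, Cacng2 chr15:77991748-78120028 and Cacng8 chr7:3390683-3415648.

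Most cells read as MGE interneurons. Lhx6, the transcription factor that specifies them, was carried by 57 of the 62 cells and Gad1, which makes GABA, by 58. A cell is said to carry a gene at 10 CPM or more, where CPM is the count scaled to a cell total of 1000000. WT male cell 12 carried 0 of 11 MGE markers, Mut female cell 18 carried 1, and Mut female cell 6 and WT male cells 15 and 16 carried 2 each. Lhx6 together with Gad1 or Gad2 was carried by 55 cells. Markers of pyramidal neurons were present too: the summed CPM of 10 such genes had a median of 90.5 in Mut females, 336 in Mut males, 75.3 in WT females and 142 in WT males. Summed markers had medians over the 62 cells of 213 CPM for astrocytes (9 genes, up to 8220 CPM), 3.29 CPM for oligodendrocyte precursors (7 genes, up to 2006 CPM), 16.1 CPM for microglia (11 genes, up to 7493 CPM) and 439 CPM for blood and vessel (7 genes, up to 26994 CPM), against 1920 CPM for MGE interneurons.

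Levels of different genes were compared as TPM, which corrects for transcript length. Cnih2 stood first, with a median of 544 TPM over the 62 cells, and its value was above that of Gria1 in 57 of them. Gria1 followed at a median of 97.6 TPM, Gria2 at 65.6 TPM and Gria4 at 43.7 TPM. These 3 neighbours were not separated cell by cell: Gria1 was above Gria2 in 35 of 62 cells, and Gria2 above Gria4 in 39. Cacng2 had a median of 8.88 TPM, Gria3 of 4.67 TPM and Cnih3 of 2.87 TPM, with Cacng2 above Gria3 in 35 cells and Gria3 above Cnih3 in 29. Cacng8 had a median of 0 TPM. By TPM the order of medians thus separates Cnih2 from the pore subunits and Cacng8 from all, while neighbours between them overlap. The gap of Cnih2 depends on the length correction: in CPM its median was 429, against 367 for Gria1.

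**Figure D1:**
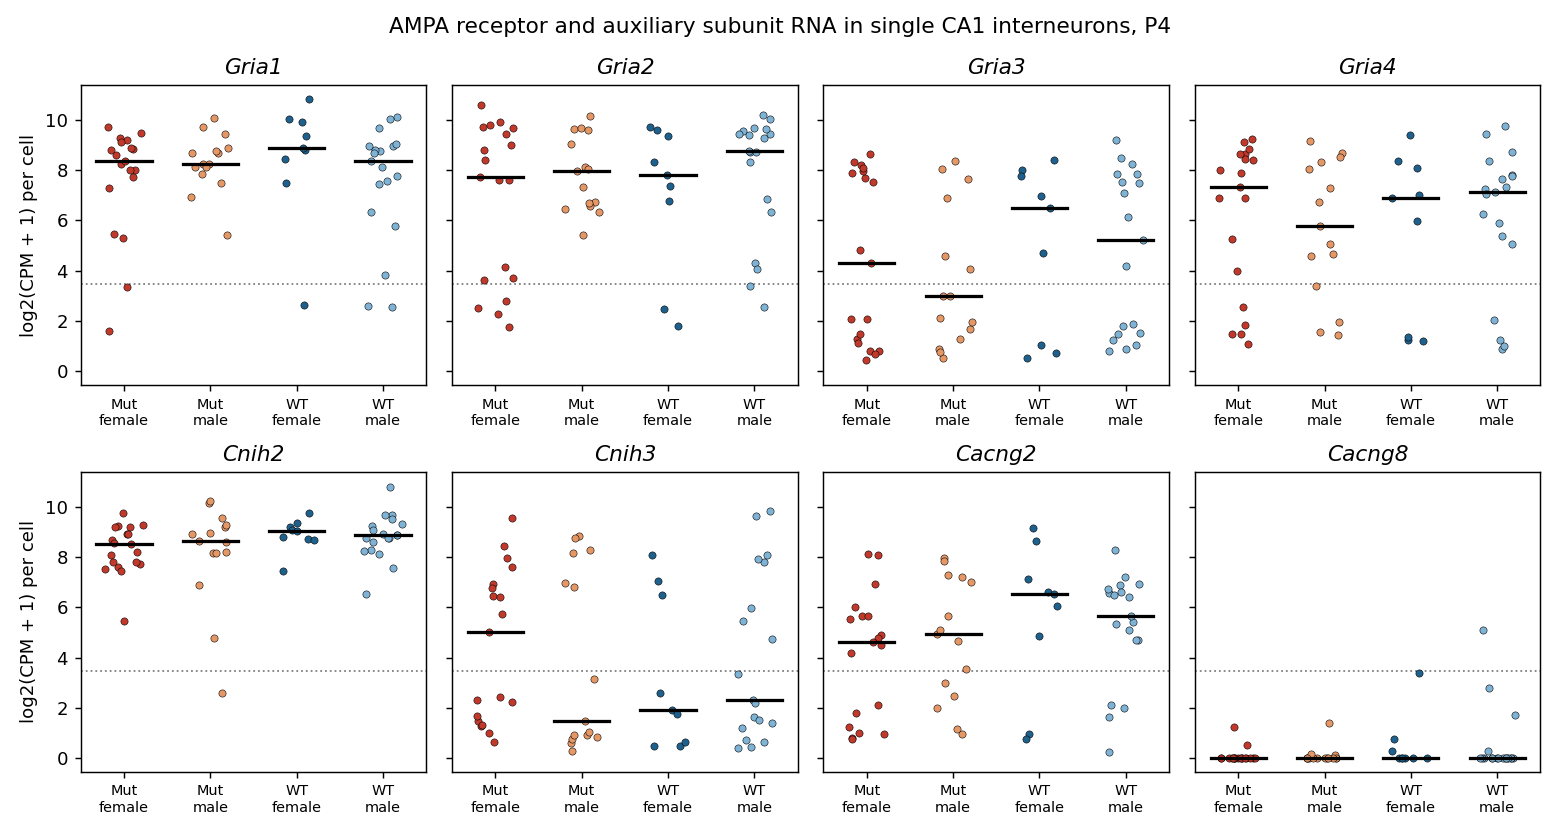
Level of each gene as log2(CPM + 1) on the vertical axis, 1 point per cell, in Mut females (19 cells), Mut males (15), WT females (9) and WT males (19). Black bars are medians and the dotted line marks 10 CPM. Cnih2 is above the line in 61 of 62 cells, Gria3 and Cnih3 fall on both sides of it, and Cacng8 is above it in 1 cell.

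Gria1, the subunit that plasticity most often adds to synapses, was carried by nearly every cell. Its lowest, median and highest values were 2.01, 332 and 832 CPM in Mut females, 41.9, 305 and 1074 CPM in Mut males, 5.17, 477 and 1841 CPM in WT females and 4.94, 330 and 1107 CPM in WT males. It reached 10 CPM in 17 of 19 cells of Mut females, 15 of 15 of Mut males, 8 of 9 of WT females and 17 of 19 of WT males. The groups overlapped, and the highest cell of all, WT female cell 7, held 36.1% of the Gria1 counts of its group.

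Gria2, the subunit that sets calcium permeability, was carried by 54 of 62 cells. Its lowest, median and highest values were 2.42, 209 and 1542 CPM in Mut females, 41.7, 251 and 1149 CPM in Mut males, 2.54, 225 and 841 CPM in WT females and 4.92, 435 and 1168 CPM in WT males. Carriers were 15 of 19 cells of Mut females, 15 of 15 of Mut males, 7 of 9 of WT females and 17 of 19 of WT males. WT males had the highest median, and all 4 groups overlapped.

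Gria3, an X-linked subunit, was carried by 33 cells and below 10 CPM in the other 29. The values were 0.376, 18.6 and 395 CPM in Mut females (lowest, median and highest), 0.432, 6.96 and 326 CPM in Mut males, 0.441, 89.9 and 342 CPM in WT females and 0.761, 36.4 and 580 CPM in WT males. Carriers numbered 10 of 19 cells of Mut females, 6 of 15 of Mut males, 6 of 9 of WT females and 11 of 19 of WT males. Among the 33 carriers the median was 203 CPM, and no cell lay between 6.97 CPM, the highest of the others, and 15.9 CPM, the lowest carrier.

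Gria4, the subunit typical of fast interneurons in older animals, was carried by 46 of 62 cells. It ran over 1.12, 158 and 606 CPM in Mut females (lowest, median and highest), 1.70, 54.1 and 577 CPM in Mut males, 1.34, 117 and 670 CPM in WT females and 0.867, 138 and 856 CPM in WT males. Carriers were 14 of 19 cells of Mut females, 11 of 15 of Mut males, 6 of 9 of WT females and 15 of 19 of WT males. The groups overlapped, and in WT females cell 3 held 39.2% of the counts.

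Cnih2, the cornichon best known from hippocampal principal cells, was carried by 61 of 62 cells. It stood at 42.7, 365 and 851 CPM in Mut females (lowest, median and highest), 4.95, 401 and 1194 CPM in Mut males, 172, 517 and 850 CPM in WT females and 90.0, 461 and 1766 CPM in WT males. The 1 cell below 10 CPM was a Mut male cell that carried Gria1 and Gria2 at 833 and 1149 CPM, Mut male cell 5. Both Mut medians were below both WT medians, with ranges that overlapped.

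Cnih3, its closest relative, was carried by 27 cells. Its lowest, median and highest values were 0.550, 31.6 and 751 CPM in Mut females, 0.214, 1.81 and 457 CPM in Mut males, 0.386, 2.72 and 271 CPM in WT females and 0.304, 3.93 and 908 CPM in WT males. Carriers were 10 of 19 cells of Mut females, 6 of 15 of Mut males, 3 of 9 of WT females and 8 of 19 of WT males. All 27 Cnih3 carriers also carried Cnih2, and 44.3% of Cnih2 carriers carried Cnih3.

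Cacng2, the TARP stargazin, was carried by 44 cells at lower levels. It stood at 0.683, 23.8 and 278 CPM in Mut females (lowest, median and highest), 0.919, 29.7 and 246 CPM in Mut males, 0.698, 92.2 and 568.2 CPM in WT females and 0.179, 48.7 and 313 CPM in WT males. Carriers were 12 of 19 cells of Mut females, 10 of 15 of Mut males, 7 of 9 of WT females and 15 of 19 of WT males. The medians of both Mut groups lay below those of both WT groups, and the ranges overlapped.

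Cacng8, the TARP gamma-8 that dominates adult hippocampal principal cells, was at 0 counts in 50 of 62 cells. Only WT male cell 6 reached 10 CPM, with 33.4 CPM. In the Mut groups 0 of 34 cells did, a count that allows up to 8.82% of cells. The highest values were 1.36 CPM in Mut females, 1.62 CPM in Mut males and 9.55 CPM in WT females, the last in cell 2.

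The pore subunits were combined in different ways from cell to cell. All 4 reached 10 CPM together in 27 cells (14 Mut and 13 WT), and Gria1, Gria2 and Gria4 without Gria3 in 16 (10 Mut and 6 WT). Gria1 and Gria2 alone were carried by 6 cells (4 Mut and 2 WT). A further 4 cells carried a single subunit, which was Gria1 in 3 of them, and Mut female cell 6 carried none. Of the 33 carriers of Gria3, 93.9% carried Gria2, and of the 54 carriers of Gria2, 57.4% carried Gria3.

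Gria2 was below 10 CPM while another pore subunit was carried in 7 of 62 cells (11.3%, exact interval 4.66% to 21.9%). These were 3 of 19 cells of Mut females, 0 of 15 of Mut males, 2 of 9 of WT females and 2 of 19 of WT males; the count of 0 allows up to 20% of Mut male cells. Mut female cell 17 had 563 CPM of Gria1 and 349 CPM of Gria4 beside 4.78 CPM of Gria2. Mut female cell 15 had 619 CPM of Gria1 and 203 CPM of Gria3 beside 5.96 CPM of Gria2. WT male cell 16 had 812 CPM of Gria1 and 856 CPM of Gria4 beside 4.92 CPM of Gria2, but carried only 2 of 11 MGE markers, with Gad1 at 7.10 CPM. WT female cell 7 had 1841 CPM of Gria1 beside 2.54 CPM of Gria2, with Lhx6 at 2.67 CPM. Among the 55 cells with Lhx6 and Gad1 or Gad2, 4 had Gria2 below 10 CPM beside another pore subunit: Mut female cells 15 and 17, WT female cell 8 and WT male cell 6. The Gria2 counts of the 7 cells were 19 to 46 reads, and Gria2 had a read in all 62 cells.

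The Gria2 share is the Gria2 TPM over the summed TPM of Gria1 to Gria4 in a cell, taken in the 61 cells with at least 100 counts over these genes. It spread from near 0 to near 100% in single cells. The lowest, median and highest shares were 0.393%, 23.5% and 95.5% in 18 Mut female cells, 6.95%, 21.01% and 83.6% in 15 Mut male cells, 0.114%, 19.7% and 81.1% in 9 WT female cells and 0.165%, 42.8% and 96.2% in 19 WT male cells. WT male cells had the highest median, and all groups overlapped. The highest share of Mut females was that of cell 18, and the lowest of WT females and of WT males were those of cells 7 and 16, the cells with few MGE markers or little Lhx6 named above. In the 55 cells with Lhx6 and Gad1 or Gad2 the shares ran over 0.393%, 23.5% and 66.1% in 16 Mut female cells (lowest, median and highest), 6.95%, 21.1% and 83.6% in 14 Mut male cells, 1.04%, 20.5% and 81.1% in 8 WT female cells and 2.04%, 42.8% and 96.2% in 17 WT male cells. The median share of Mut cells minus that of WT cells was 3.87 percentage points in females and -21.8 points in males, with no test since each group is 1 sum.

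The male difference was smaller in the summed level than in the median. Of the summed Gria1 to Gria4 TPM, Gria2 made up 31.0% in Mut females, 34.1% in Mut males, 27.0% in WT females and 39.4% in WT males, a difference of -5.33 points in males. Shares above 50% were found in 4 of 18 cells of Mut females, 3 of 15 of Mut males, 1 of 9 of WT females and 6 of 19 of WT males. Shares under 10% were found in 6 cells of Mut females, 1 of Mut males, 2 of WT females and 3 of WT males. In summed counts Gria2 held 33.5% (33.3% to 33.8%) in Mut females, 34.5% (34.3% to 34.8%) in Mut males, 27.5% (27.2% to 27.9%) in WT females and 40.5% (40.2% to 40.7%) in WT males.

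**Figure D2:**
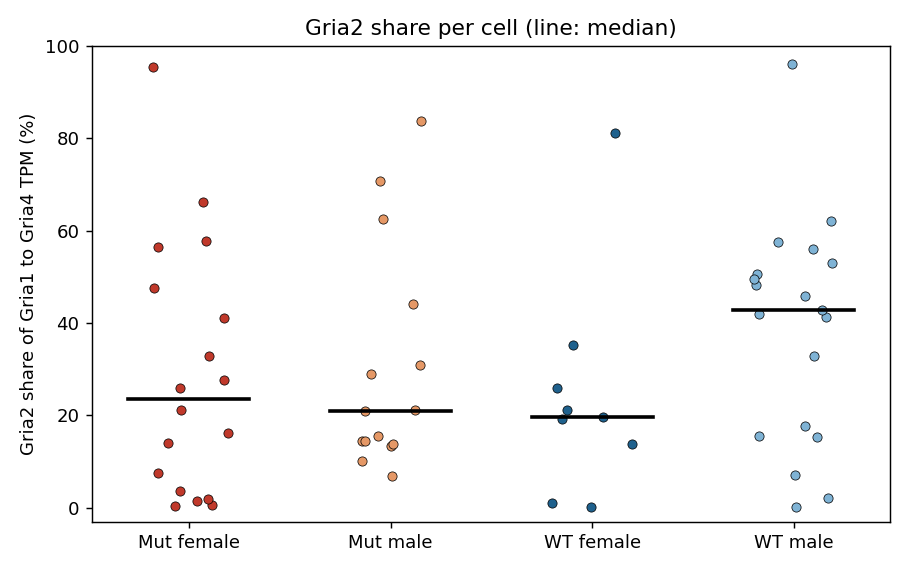
Gria2 share of Gria1 to Gria4 TPM in percent, 1 point per cell with at least 100 counts over the 4 genes, for 18 cells of Mut females, 15 of Mut males, 9 of WT females and 19 of WT males. Lines are medians, at 23.5%, 21.01%, 19.7% and 42.8% from left to right, and each group has cells under 10% and over 80%.

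The other subunits filled the remainder unevenly. Gria1 had a median share of 29.7% in Mut females, 27.7% in Mut males, 47.4% in WT females and 24.4% in WT males. The median share of Gria4 was 17.3% in Mut females, 8.97% in Mut males, 18.7% in WT females and 13.5% in WT males. Gria3 had a median share of 1.90% in Mut females, 0.577% in Mut males, 9.48% in WT females and 4.79% in WT males. By TPM the leading subunit was Gria1 in 23 cells, Gria2 in 22, Gria4 in 13 and Gria3 in 3. Gria2 led in 6 of 18 cells of Mut females, 3 of 15 of Mut males, 2 of 9 of WT females and 11 of 19 of WT males, so its lead was more frequent in WT cells among males and in Mut cells among females. Gria4 led in 5 cells of Mut females, 5 of Mut males, 0 of WT females and 3 of WT males. By counts Gria2 led in 11 Mut and 12 WT cells.

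**Figure D3:**
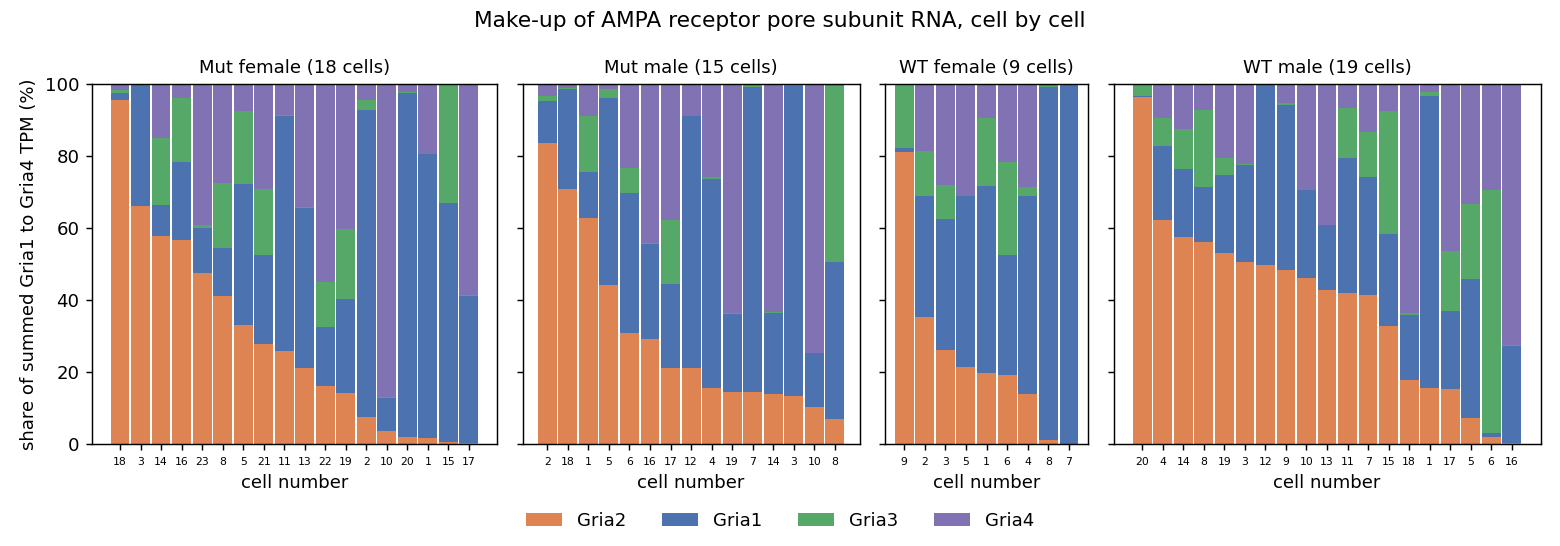
Stacked bars show the share of each pore subunit in the summed Gria1 to Gria4 TPM of a cell, in percent, 1 bar per cell and sorted by the Gria2 share (bottom segment) within Mut females, Mut males, WT females and WT males. Neighbouring cells of the same group differ in which subunit leads, and 12 of 61 cells have a Gria2 share under 10%.

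Counts and TPM gave different shares in some cells. The 2 scales differed by over 10 percentage points in 8 of 61 cells and by over 20 points in 1, Mut female cell 11, with a Gria2 share of 25.9% by TPM and 52.6% by counts. The leading subunit changed with the scale in 9 cells. Annotated Gria1 transcripts run from 287 to 5546 bases, and those of Gria2 from 1975 to 10371 bases; whether the transcript assigned to a read moves the share was not tested.

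The comparison of genotypes asked whether these genes differed between Mut and WT interneurons. The edgeR test used for it recovered 0% of 4-fold and 0% of 16-fold changes in data simulated at the spread found here. A gene that does not pass, here or below, may therefore still differ. None of the 8 passed the edgeR quasi-likelihood test on the 4 sums with sex as a term (adjusted p = 1 for each; lowest unadjusted p = 0.0784, for Cacng8), as no gene did among the 16435 tested: 0 were higher and 0 lower in Mut, or 0% in each direction. At an unadjusted p under 0.05, 273 genes were higher and 302 lower, none of them among the 8, and DESeq2 called 367 genes higher (2.23%) and 299 lower (1.82%), also none of the 8. Of the 8 genes, 4 had lower sums in Mut in both sexes (Gria2, Gria3, Cnih2, Cacng8), against 25% of all genes tested. Higher sums in both sexes were found for 0 of the 8, against 25.1% of all genes tested, and 4 went opposite ways. The female signs of Gria2 and Gria3 rest on the TMM scaling of the totals (factor 1.04 for Mut females, 0.865 for WT females). By unscaled library totals both genes had the higher female sum in Mut. The median log2 fold change of the 8 was -0.43, beside 0.00 for all genes tested (-0.000417 before rounding).

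Among the pore subunits, Gria1 stood at 361 CPM in the Mut female sum (358 to 364, 44105 counts) and 717 CPM in the WT female sum (710 to 724, 38154 counts), giving a log2 ratio of -0.99. The Mut male sum held 397 CPM (394 to 401) and the WT male sum 358 CPM (354 to 361), giving 0.15. The female ratio was -0.45 without WT female cell 7, and the male ratio was -0.03 without Mut male cell 7. With the sexes fitted together it had a log2 fold change of -0.42 (SE 0.42, edgeR adjusted p = 1), and of -0.018 in the 55 cells with Lhx6 and Gad1 or Gad2. The difference of the median log2(CPM + 1) over cells was -0.52 in females and -0.12 in males.

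Gria2 had 351 CPM in the Mut female sum against 384 CPM in the WT female sum, and 330 CPM in the Mut male sum against 452 CPM in the WT male sum, log2 ratios of -0.13 and -0.45. Without WT female cell 9 the female ratio was 0.39. Gria3 had 128 CPM in the Mut female sum against 137 CPM in the WT female sum, and 65.4 CPM in the Mut male sum against 119 CPM in the WT male sum, log2 ratios of -0.10 and -0.85. The female value of Gria3 was 0.18 without WT female cell 9, and the male value -0.52 without WT male cell 5. Over both sexes the log2 fold changes were -0.29 for Gria2 (SE 0.34) and -0.48 for Gria3 (SE 0.52).

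Gria4 had 208 CPM in the Mut female sum against 156 CPM in the WT female sum, and 163 CPM in the Mut male sum against 188 CPM in the WT male sum, log2 ratios of 0.41 and -0.21. Leaving out WT male cell 16 gave a male ratio of 0.13, and leaving out WT female cell 3 gave a female ratio of 0.93. Its fold change over both sexes was 0.10 on the log2 scale (SE 0.43), and it took the other sign, at -0.069, with all cells weighted equally.

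Among the auxiliary subunits, Cnih2 had 402 CPM in the Mut female sum against 633 CPM in the WT female sum, and 446 CPM in the Mut male sum against 519 CPM in the WT male sum (log2 ratios -0.65 and -0.22; over both sexes -0.44, SE 0.33, with an edgeR p of 0.247 unadjusted and 1 adjusted). The male ratio was 0.01 without WT male cell 16. Cnih3 had 114 CPM in the Mut female sum against 74.7 CPM in the WT female sum, and 127 CPM in the Mut male sum against 153 CPM in the WT male sum (log2 ratios 0.60 and -0.27; over both sexes 0.17, SE 0.52). WT female cell 9 held 64.7% of the WT female Cnih3 counts, and without it the female ratio was 1.88; without WT male cell 17 the male ratio was 0.27.

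Cacng2 stood at 56.6 CPM in Mut (55.3 to 58.0) and 137 CPM in WT females (134 to 140), a log2 ratio of -1.26, and the Mut male sum held 84.3 CPM against 70.7 CPM in the WT male sum, a ratio of 0.25. In females this was past 2-fold, as were 18.2% of all tested genes in the same direction. The female ratio was -0.89 without WT female cell 4 and -1.82 without Mut female cell 16, and the male medians over cells ran the other way from the male sums (difference of median log2(CPM + 1) -0.70). With the sexes fitted together it had a log2 fold change of -0.51 (SE 0.66).

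Cacng8 rested on few reads. It had 7 counts in Mut females, 15 in Mut males, 64 in WT females and 216 in WT males, or 0.0573 CPM (0.0230 to 0.118), 0.131 CPM (0.0735 to 0.216), 1.20 CPM (0.926 to 1.54) and 1.65 CPM (1.43 to 1.88). WT female cell 2 held 89.1% and WT male cell 6 held 73.6% of the counts of their sums. With a pseudocount of 1 CPM the log2 ratios were -1.06 in females and -1.23 in males, past 2-fold in both (18.2% of tested genes in females and 17.4% in males), and without these cells -0.13 in females and -0.36 in males. The pseudocount set these sizes: with 0.1 CPM they were -3.05 in females and -2.92 in males, and with 10 CPM -0.16 and -0.20. The fitted log2 fold change was -3.99 (SE 1.77, edgeR adjusted p = 1).

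**Figure D4:**
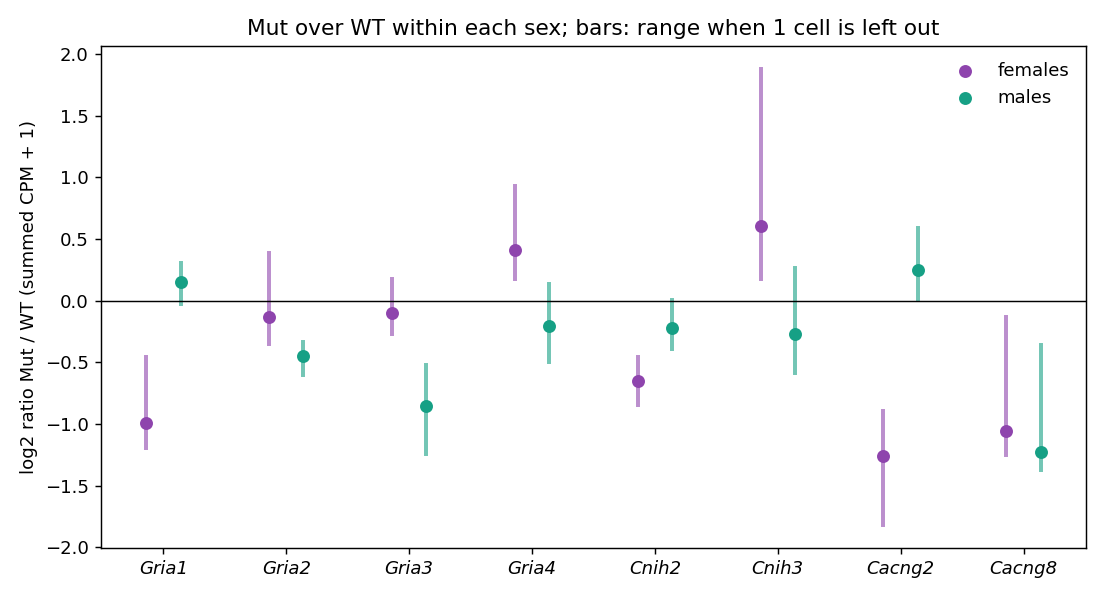
Points are log2 ratios of Mut over WT in summed CPM + 1 for females and males, and bars span the lowest and highest ratio when 1 cell of that sex is left out. Female ratios run from -1.26 (Cacng2) to 0.60 (Cnih3) and male ratios from -1.23 (Cacng8) to 0.25 (Cacng2), and 6 of the 16 bars cross 0.

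Markers of pyramidal neurons, which express AMPA receptors strongly, were set beside the members. Neurod6, a transcription factor of these neurons, reached 10 CPM in 5 of 19 cells of Mut females, 10 of 15 of Mut males, 4 of 9 of WT females and 12 of 19 of WT males. Gria2 had a median of 209 CPM in the 15 Mut cells with Neurod6 and 265 CPM in the 19 Mut cells without it, and a median of 379 CPM in the 16 WT cells with it and 422 CPM in the 12 without. Cnih2 had medians of 494 CPM with and 289 CPM without Neurod6 in Mut cells, and of 500 and 429 CPM in WT cells. The Gria2 share had medians of 15.5% and 23.5% in Mut cells with and without Neurod6, and of 37.0% and 30.6% in WT cells. These medians pool the sexes, and Neurod6 was carried by a larger part of male than of female cells in both genotypes. Neurod6 and sex therefore cannot be told apart in them.

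Without the Neurod6-carrying cells, 14 cells of Mut females, 5 of Mut males, 5 of WT females and 7 of WT males were left. In their sums the 7 genes that could be fitted had log2 fold changes below 0, as did 47.7% of all 13860 genes tested there (median 0.089). The values were -0.85 for Gria1, -0.65 for Gria2, -1.09 for Gria3, -0.60 for Gria4, -1.07 for Cnih2, -0.24 for Cnih3 and -0.24 for Cacng2, and none passed edgeR (adjusted p = 1 for each). Gria4 and Cnih3 thereby changed sign. The male median difference in Gria2 share was -21.6 points in these cells.

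The 5 WT cells marked as contaminated, 1 female and 4 male, had lower medians than the 28 other WT cells for 7 of the 8 genes, and Cacng8 had a median of 0 in both. Their microglial markers summed to 3592 to 13747 CPM, a range that also held the highest unmarked cell, a Mut female cell at 7493 CPM. In the marked cells Gria1 ran over 17.8, 27.9 and 206 CPM (lowest, median and highest) and Gria2 over 47.8, 97.9 and 305 CPM. In the 28 other WT cells their medians were 423 and 422 CPM. Of the marked cells, 5 of 5 carried Gria2 and 4 of 5 carried Cacng2. Their Gria2 share ran from 42.7% to 91.5% with a median of 50.6%, against 34.0% in the other WT cells. The part of the microglial RNA in these values was not tested. The labels mark no Mut cell as contaminated.

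Other genes of the AMPA receptor pathway were taken from lists chosen by name, and none passed edgeR in either direction. Over all genes tested, both sexes had the higher sum in Mut for 25.1% and the lower for 25%. Of 10 other auxiliary subunits, both sexes had the higher sum in Mut for 5 and the lower for 4, and 1 went opposite ways (median log2 fold change -0.24). Cacng3, the TARP gamma-3, was the most abundant at a mean of 196 CPM and in 33 cells. Its medians were 110 CPM in Mut females, 94.99 CPM in Mut males, 283 CPM in WT females and 3.78 CPM in WT males. Its carriers were 10 cells of Mut females, 9 of Mut males, 6 of WT females and 8 of WT males. The log2 ratio of its sums was -1.31 in females and 0.13 in males, so the male sums lay much closer together than the male medians. Over both sexes its log2 fold change was -0.59 (SE 0.51). Shisa6, a membrane protein that holds receptors in place, was carried by 27 cells and Cacng4, the TARP gamma-4, by 39. Syndig1, a synapse-inducing membrane protein, was carried by 3 cells of Mut females, 6 of Mut males, 0 of WT females and 6 of WT males.

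Of 21 genes of receptor assembly and traffic, the sum in Mut was higher in both sexes for 9 and lower in both for 7. For 5 the sexes went opposite ways, and over all genes tested 25.1% were higher and 25% lower in both. The list had a median log2 fold change of 0.64 over both sexes, and within-sex medians of 0.67 in females and -0.02 in males. Ap2m1, the cargo subunit of the clathrin adaptor, was carried by all 62 cells (log2 fold change 0.10, SE 0.28). Nsf, the ATPase that binds GluA2, was carried by 48 cells (-0.66, SE 0.46). Vps35, a retromer subunit that returns receptors from endosomes, had medians of 164 CPM in Mut females, 258 CPM in Mut males, 44.5 CPM in WT females and 23.3 CPM in WT males (0.88, SE 0.40, unadjusted p = 0.0851 in edgeR). Olfm1, a secreted partner of the receptor, had medians of 486 CPM in Mut females, 537 CPM in Mut males, 385 CPM in WT females and 303 CPM in WT males.

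Of 16 postsynaptic density scaffolds, the sum in Mut was higher in both sexes for 2 and lower in both for 4. The other 10 went opposite ways, and over all genes tested 25.1% were higher and 25% lower in both. The median log2 fold change of the list was -0.30. Camk2b is a subunit of the kinase that phosphorylates GluA1. Its medians were 267 CPM in Mut females, 284 CPM in Mut males, 128 CPM in WT females and 412 CPM in WT males. Its sums gave a log2 fold change of -1.18 (SE 0.35, with an edgeR p of 0.0223 unadjusted and 1 adjusted). The log2 ratio of its sums was -1.42 in females and -0.93 in males, so the female medians ran the other way from the female sums. Homer1, a scaffold of the postsynaptic density, stood at 1.08 (SE 0.55), Dlgap1 at 0.17 (SE 0.41) and Shank1 at -0.26 (SE 0.41). Of the editing enzymes, Adar was carried by 28 cells, Adarb1, which edits the codon printed above, by 24, and Adarb2, which has no known editing activity, by 7. Adarb1 was carried by 6 of 19 cells of Mut females, 6 of 15 of Mut males, 5 of 9 of WT females and 7 of 19 of WT males, and its log2 fold change was 0.05 (SE 0.80).

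The Spearman correlation of log2(CPM + 1), which also shares each cell's depth and capture, was highest over the 62 cells for Gria2 with Gria3 (0.42 over all cells, 0.45 in Mut and 0.43 in WT cells). The pairs furthest apart between genotypes were Cnih2 with Cacng2 and Gria1 with Gria4. Gria1 with Gria4 stood at 0.01 in Mut and 0.50 in WT cells, and Cnih2 with Cacng2 at 0.19 in Mut and -0.46 in WT cells. Some other pairs were alike, such as Gria2 with Cnih3 at 0.25 in Mut and 0.23 in WT cells. Sexes were pooled, cells are not replicates, and no difference in correlation was tested. Gria1 and Gria2 had a correlation of 0.09, and Cnih2 with Gria2 -0.15. Among 2938 genes carried by at least 31 of the 62 cells, leaving out members, those most like Gria2 were Rsrp1 (0.59), Son (0.55) and Opcml (0.54), against a median of 0.05. For Gria1 they were Snhg11 (0.48), Prnp (0.47) and Slc22a17 (0.45). For Gria3 they were Gpi1 (0.50), Srgap2 (0.46) and Atg9a (0.46), and for Gria4 Smarcc2 (0.52), Mef2a (0.52) and Hsp90b1 (0.51). Those for Cnih2 included Ppp1r14c (0.49), and those for Cacng2 included Pitpnm1 (0.54) and Rnf10 (0.53).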

How the data were processed

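Single cells were sequenced by Patch-seq with Nextera XT libraries, per the labels' protocols. Quantification used kallisto on GRCm38, per the submitters' processing notes, with no version given in the sources used here. The authors deposited expected counts per gene symbol before and after a quality filter, whose criterion is not given in the sources used here, and TPM for the kept cells, identified by the column sums. They kept 67 of 76 labelled cells; 44 columns after the filter and 52 before it belong to no labelled sample and were not used here.

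Counts of the 62 kept, unmarked cells were summed per group and rounded. The genotype test was the quasi-likelihood test of edgeR 4.0.16 (TMM scaling, filterByExpr with a minimum count of 10, sex as a term, 1 residual degree of freedom) and Benjamini-Hochberg adjustment over 16435 genes at a threshold of 0.05; DESeq2 1.42.0 was an alternative. With 1 sum per group, the spread behind the p-values is the departure of the 4 sums from the same genotype ratio in both sexes. That spread may be technical, and a real sex difference in the genotype ratio would also count as spread. The biological coefficient of variation was 0.958. Tested on simulated data at that value, the fit on 16435 genes recovered 0% of 4-fold and 0% of 16-fold changes, and at 0.1 it recovered 100% of both with 10 false calls. CPM per cell uses the cell's total count, and CPM of sums uses TMM-scaled totals; ratios add a pseudocount of 1 CPM. Cell numbers follow the order of the labels within a group. All 8 members were named; of each related list the 4 genes of highest mean CPM, and the 3 genes of highest Spearman correlation per member, excluding Gm and Rik names; some genes so chosen are not reported here. Members, lists and tests were chosen with earlier results of these data known. Loci and coding sequences came from GENCODE M21.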

Additional observations from a re-analysis of the deposited data

Results flagged for a closer look

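Among 18 sets of 4 to 10 cells examined for a cell far from the rest, 7 held one. Chance alone flags about 1 in 20 in normally spread values, but CPM per cell is skewed and several flags fall on the same cell. The 7 flags therefore cannot be set against that rate. In WT females, cell 3 had 670 CPM of Gria4 (next highest 331 CPM), cell 9 had 271 CPM of Cnih3 (next 130 CPM) and a Gria2 share of 81.1% (next 35.2%), and cell 2 had 9.55 CPM of Cacng8 (next 0.698 CPM). Among the 4 contaminated WT male cells, cell 3 had 31.8 CPM of Gria3 (next 2.40 CPM), 65.4 CPM of Gria4 (next 3.13 CPM) and 42.8 CPM of Cnih3 (next 0.833 CPM).

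In 4 genes the Mut over WT log2 ratio had opposite signs in the sexes, and the difference between sexes was not tested, since 4 sums leave no replicate for it. The ratios were -0.99 in females and 0.15 in males for Gria1, 0.41 and -0.21 for Gria4, 0.60 and -0.27 for Cnih3, and -1.26 and 0.25 for Cacng2. By medians over cells in place of sums, the male value was -0.12 for Gria1 and -0.70 for Cacng2, the same sign as in females, while Gria4 and Cnih3 kept opposite signs in the sexes.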

How the results depend on the processing

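The number of genes called for genotype was 0 under 8 alternatives, 666 in DESeq2 and 1 without Neurod6-carrying cells; the cause was not tested. Of 79 member fold changes under alternatives that keep all 4 sums, 76 kept their direction; Gria4 was -0.60 without Neurod6-carrying cells and -0.069 with cells weighted equally, and Cnih3 was -0.24 without Neurod6-carrying cells, where Cacng8 could not be fitted. Gria1 kept its sign but was -0.018 in cells with Lhx6 and Gad1 or Gad2, against -0.42 in all 62 cells; the cause was not tested. Leaving out 1 cell or 1 sum, the log2 fold change ran from -0.99 to 0.15 for Gria1, -0.45 to -0.03 for Gria2, -0.86 to -0.10 for Gria3, -0.21 to 0.41 for Gria4, -0.65 to -0.22 for Cnih2, -0.27 to 0.82 for Cnih3, -1.27 to 0.25 for Cacng2 and -5.30 to -2.57 for Cacng8. A left-out sum leaves no residual degree of freedom and no test. The sign of 6 of 16 within-sex ratios changed when 1 cell was left out. By unscaled library totals in place of TMM, the female ratios of Gria2 and Gria3 also took the other sign.

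The difference in median Gria2 share was 4.45 points in females and -19.6 in males by counts, 6.23 in females with a minimum of 10 or 1000 counts, -24.9 in males with 1000, 3.96 and -5.33 by summed TPM, and -0.154 and -21.6 without Neurod6-carrying cells. Under settings chosen after seeing the data, it was 3.05 and -21.7 in cells with Lhx6 and Gad1 or Gad2, and 1.51 and -23.4 without cells of 2 or fewer MGE markers. Leaving out 1 cell, it ran from 1.51 to 6.23 points in females and from -24.5 to -21.4 in males. Of 48 carrier counts at 1 CPM, 50 CPM or 10 TPM, 38 were within 1.5 times the count at 10 CPM. No paired analysis was possible because the labels give no replicate numbers shared between groups. With 1 sum per group and no animals named, these data limit every genotype statement to a description of the sampled cells.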

Other observations

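The 9 labelled cells that the authors' filter removed held 899625 to 6253603 counts (median 2102311). Most of them were Mut cells. Before the filter the unmarked cells numbered 23 of Mut females, 19 of Mut males, 9 of WT females and 20 of WT males. After it they numbered 19, 15, 9 and 19 in the same order. In them Cnih2 reached 10 CPM in 9 of 9 cells, Gria1 in 8, Gria2 in 8, Gria4 in 6, Gria3 in 4, Cnih3 in 4, Cacng2 in 3 and Cacng8 in 1, where Cacng8 stood at 13.4 CPM. Their median values were 270 CPM for Gria1, 197 CPM for Gria2 and 328 CPM for Cnih2.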
